A study of Mus musculus with 4 samples.

Results

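The Vmn1r genes of mouse chromosome 6 were examined for peaks of H3K9me3, trimethylation of lysine 9 on histone H3, a mark of silenced chromatin. They comprised the protein-coding genes on that chromosome whose symbols start with Vmn1r, which gave 51 genes out of 21779 protein-coding genes measured and out of 229 Vmn1r genes in all. The rule uses name and position and no measured value, though the family was picked for study with earlier results of these data known. Cultured primary muscle stem cells, isolated with magnetic beads, were exposed for 72 h to 4-hydroxytamoxifen or to ethanol. The genotype field reads Setdb1lox/lox;Pax7GakaCreERT3 for the 4-hydroxytamoxifen H3K9me3 library and Setdb1lox/lox;Pax7GakaCreERT2 for the ethanol one, and the last digit counts up over the 4 libraries of the study. Both cultures therefore carried loxP-flanked Setdb1 and a Cre driven by Pax7, and only cells in which that Cre was made and activated could lose Setdb1. The sources used here give neither the ages of the animals nor whether animals were pooled. Native chromatin was cut with micrococcal nuclease, and 1 H3K9me3 library and 1 input library were made per culture. The input libraries were not analysed here.

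Setdb1 is a methyltransferase that places H3K9me3, often at repeats and at clustered gene families. Vmn1r genes encode type 1 vomeronasal receptors, G protein-coupled receptors of the sensory neurons of the vomeronasal organ, where they detect pheromones and signal through the G protein subunit Gnai2 and the ion channel Trpc2. Each such neuron is known to use a single receptor gene or very few, and the genes lie in tandem clusters of short, closely similar copies. They have no known role in muscle. In the related olfactory system, receptor gene clusters are known to carry H3K9me3 in the neurons.

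The deleted (4-hydroxytamoxifen) list held 113503 peaks and the control (ethanol) list 105709 on chromosomes 1 to 19, X and Y. Read depth is unknown, and with 1 library per group no difference has a replicate check and no test was made. Chromosome 6 stood apart from the other autosomes: its peaks covered 0.504 times as many bases in the deleted as in the control list, with 7220 against 10030 peaks, while the ratio on the other 18 autosomes ran from 0.844 on chromosome 14 to 1.23 on chromosome 7. Chromosome 14 had few peaks in both lists, 568 in the deleted and 654 in the control list, and the next lowest ratio was 0.922 on chromosome 3. On chromosome X the ratio was 2.26, with 4892 against 2437 peaks. Peak lists do not give the number of copies of a chromosome, so for every ratio on chromosome 6 less of the mark per copy and fewer copies cannot be told apart. The main values for the Vmn1r genes are therefore set beside the rest of chromosome 6. In a bulk sample, fewer cells with the mark and less of the mark per cell cannot be told apart. The window of Setdb1 itself was 0% covered in the deleted and 0.888% in the control list, and neither value measures the deletion. Of 16 marker genes of muscle stem cells, fibroblasts, endothelial cells and immune cells, 14 were at 0% in both lists, Pax7 among them, and peaks of a silencing mark do not measure which cell types were present.

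The 51 genes formed 3 clusters, where a cluster was a run of genes no more than 500 kb apart (build GRCm38, that is mm10). The first ran from Vmn1r4 to Vmn1r31, 28 genes between 56923914 and 58472878. The second lay 8.08 Mb further on and ran from Vmn1r32 to Vmn1r39, 8 genes between 66552183 and 66805332. The third, a further 22.9 Mb on, ran from Vmn1r40 to Vmn1r54, 15 genes between 89711261 and 90270053. Of the genes of the first cluster 25 have older names of the V1rc group, as do 6 of the second, and all 15 genes of the third have V1ra or V1rb names. Within a cluster, neighbouring genes stood 31.3 kb apart at the median, with a range from 10.6 to 411 kb. The median gene length was 930 bp. Among 37 genes shorter than 1100 bp, 35 had a length that is a multiple of 3, so these gene models hold the coding sequence without untranslated parts.

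RefSeq sequence around an annotated start of the gene (GRCm38.p6, 250 bases before to 50 after it) was matched for 45 of the 51 genes. Vmn1r8, Vmn1r10, Vmn1r16, Vmn1r23, Vmn1r39 and Vmn1r53 had no entry. For Vmn1r4, Vmn1r14, Vmn1r28, Vmn1r30, Vmn1r40 and Vmn1r44 the annotated start lay inside the gene and not at its outer end. The Vmn1r28 gene, for example, begins at 58262307, before the window printed below. In 37 of the 45 (82.2%) the 3 bases at the start, bases 251 to 253, were ATG, against 8.13% of 21263 such windows of all protein-coding genes, so for most Vmn1r genes the window lies around the start codon and not around a known transcript start. Windows of 4 genes of the first cluster are printed as examples of starts under a peak. Of the 24 windows of that cluster 2 were touched in both lists, 8 in the control list alone and 2 in the deleted list alone. The others had no peak. The Vmn1r11 window (chr6:57137103-57137402, plus strand) lay wholly inside a peak in both lists. The windows of Vmn1r28 (chr6:58264924-58265223, plus strand) and Vmn1r26 (chr6:58009153-58009452, minus strand) lay wholly inside a control peak and had no peak in the deleted list. The Vmn1r12 window (chr6:57158670-57158969, plus strand) lay wholly inside a peak of the deleted list and had none in the control list. Each is written 5′ to 3′ on the strand of its gene, with capitals for the motif TATAAA. Its reading on the other strand, TTTATA, is in capitals too. Capitals also mark the motif TAATTA, which reads the same on both strands.
Vmn1r11: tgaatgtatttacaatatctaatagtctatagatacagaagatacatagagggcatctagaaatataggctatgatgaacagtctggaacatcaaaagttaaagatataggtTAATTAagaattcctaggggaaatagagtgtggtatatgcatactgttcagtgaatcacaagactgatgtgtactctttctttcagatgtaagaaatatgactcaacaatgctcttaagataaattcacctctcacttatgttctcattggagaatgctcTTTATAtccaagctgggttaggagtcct
Vmn1r28: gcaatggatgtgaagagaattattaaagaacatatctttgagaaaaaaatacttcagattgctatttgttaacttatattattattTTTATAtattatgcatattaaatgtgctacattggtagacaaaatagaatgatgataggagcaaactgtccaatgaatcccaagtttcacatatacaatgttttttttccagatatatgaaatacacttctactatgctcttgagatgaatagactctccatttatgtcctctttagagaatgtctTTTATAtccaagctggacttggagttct
Vmn1r26: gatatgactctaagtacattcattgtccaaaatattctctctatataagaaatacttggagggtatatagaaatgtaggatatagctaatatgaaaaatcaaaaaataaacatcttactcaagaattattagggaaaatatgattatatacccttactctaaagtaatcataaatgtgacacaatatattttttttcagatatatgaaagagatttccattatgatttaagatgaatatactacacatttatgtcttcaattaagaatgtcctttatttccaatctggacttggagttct
Vmn1r12: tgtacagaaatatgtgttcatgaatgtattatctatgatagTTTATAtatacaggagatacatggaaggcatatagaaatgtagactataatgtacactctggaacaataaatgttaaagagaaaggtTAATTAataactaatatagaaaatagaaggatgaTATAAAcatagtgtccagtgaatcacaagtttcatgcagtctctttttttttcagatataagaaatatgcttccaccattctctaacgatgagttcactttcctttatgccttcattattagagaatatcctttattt

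These windows were poor in G and C and almost free of CpG. Their GC content was 34.0% for Vmn1r11, 29.3% for Vmn1r28, 26.0% for Vmn1r26 and 28.7% for Vmn1r12, and only the Vmn1r12 window held a CpG. Over the 45 windows the median GC content was 32.0%, against 56.3% over the windows of all protein-coding genes, and 44.4% had no CpG at all, against 4.63%. TATAAA on either strand was present in 33.3% of the Vmn1r windows, against 12.6% of all windows. Vmn1r windows of other chromosomes, 161 in number, were also poor in G and C, with a median GC content of 36.3%, no CpG in 14.9% and TATAAA in 44.7%. All 15 matching windows on chromosome 6 were in the first cluster, which has 24 windows, and the 7 windows of the second cluster and 14 of the third had none. In 14 of those 15 windows a match lay before the annotated start, and in Vmn1r11 the single match began at base 273, inside the coding sequence. TAATTA was present in 13.3% of the Vmn1r windows, against 4.53% of all. These letters are common in sequence of low GC content, and whether they serve as sites was not tested.

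Most Vmn1r genes of chromosome 6 carried less H3K9me3 peak coverage in the deleted list. Coverage is the share of the gene plus 5 kb on both sides, its window, that lies under peaks. The windows together spanned 658 kb, of which 6.43% was covered in the deleted and 18.4% in the control list, a deleted-to-control ratio of 0.350 (log2 -1.51). The rest of chromosome 6 was covered at 5.27% in the deleted and 10.4% in the control list, a ratio of 0.506 (log2 -0.98). The Vmn1r windows thus had 0.53 less on the log2 scale than the rest of the chromosome (difference -0.53), and this difference rested on the first cluster: without it the difference was 0.03, and with windows of 20 kb on both sides of all genes it was -0.09.

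Gene by gene, window coverage averaged 7.03% in the deleted and 19.2% in the control list over the 51 genes, a mean difference of -12.2 percentage points, with medians of 2.54% in the deleted and 12.6% in the control list. Of the 51 windows 36 were lower in the deleted list, 8 were higher and 7 had no peak in either list. Those without any peak were Vmn1r20, Vmn1r21, Vmn1r22, Vmn1r32, Vmn1r38, Vmn1r40 and Vmn1r44. Of the other 1069 protein-coding genes of chromosome 6, 389 were lower, 86 were higher and 594 had no peak in either list. Among genes that differed at all, lower ones thus prevailed in both groups. The next counts take a window as lower or higher only where the lists differed by 10 points or more. By that measure 23 Vmn1r windows were lower and 0 were higher. The background was 2.53% lower and 2.40% higher over all protein-coding genes, and 8.33% lower and 0.281% higher over the other 1069 protein-coding genes of chromosome 6. Most of those other genes had little coverage in either list. Among the 115 of them with a mean coverage over both lists of 10% or more, 68.7% were lower and 0.870% higher by 10 points or more, and among the 26 Vmn1r genes with that coverage 20 were lower and 0 higher. A window had a peak in the deleted list alone in 3 Vmn1r genes (Vmn1r36, Vmn1r45 and Vmn1r46) and in the control list alone in 13, where the background over the other genes of chromosome 6 was 2.71% for the deleted list alone and 10.1% for the control list alone, and over all protein-coding genes 6.44% for the deleted list alone and 5.41% for the control list alone.

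**Figure D1:**
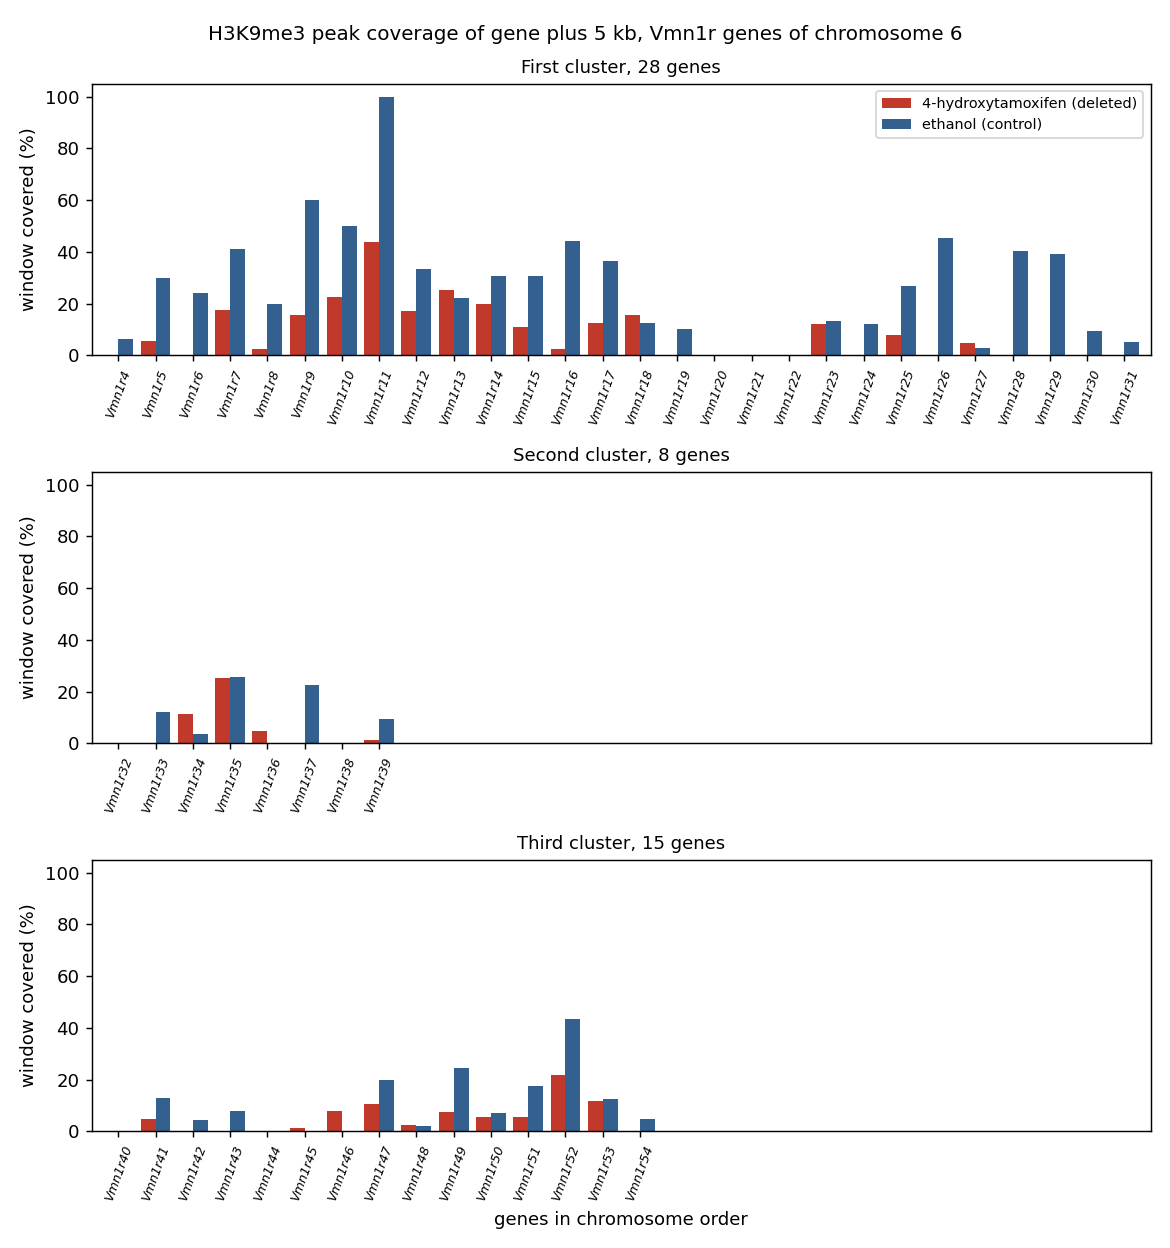
Percent of each gene plus 5 kb covered by H3K9me3 peaks (vertical axis) for the 51 Vmn1r genes of chromosome 6 in chromosome order, with a red bar for the deleted (4-hydroxytamoxifen) list and a blue bar for the control (ethanol) list, 1 library each. The tallest pair is Vmn1r11, at 43.7% in the deleted and 100% in the control list, and most red bars of the first cluster are shorter than their blue partner.

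The first cluster held the highest coverage and the largest differences between the lists. Its windows were covered at 7.54% in the deleted and 25.0% in the control list, a ratio of 0.302, and 18 of its 28 genes were lower by 10 points or more. Vmn1r11 was the most covered Vmn1r gene of the chromosome in either list, at 43.7% of its window in the deleted and 100% in the control list. In the deleted list 5 separate peaks touched that window, the widest of 3549 bp, while in the control list 1 peak of 12548 bp spanned it from end to end. That control peak was the seventh widest of 10030 on the chromosome (rank 7), and its fold enrichment, as the authors' peak caller gave it, was 2.90 with a −log10 q-value of 2.43. The gene body of Vmn1r11 was 41.0% covered in the deleted and 100% in the control list.

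Other genes near Vmn1r11 were lower in the deleted list but not at 0%. Vmn1r10 was at 22.6% in the deleted and 50.1% in the control list. Vmn1r9 was at 15.7% in the deleted and 60.1% in the control list, although its gene body, without flanks, was higher in the deleted list, at 66.9% in the deleted and 0% in the control list. The control peaks of Vmn1r9 lay on both sides of the 1051 bp gene, and a deleted-list peak of 1461 bp began inside it. Vmn1r16 was at 2.35% in the deleted and 44.3% in the control list. Vmn1r12, whose start lay under a peak of the deleted list alone, was lower over its whole window, at 17.3% in the deleted and 33.5% in the control list.

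A group of genes had no peak at all in the deleted list. Vmn1r26 was at 0% in the deleted list and at 45.6% in the control list, where 5 peaks of 872 to 1274 bp touched its window. Vmn1r28 was at 0% in the deleted and 40.4% in the control list, and Vmn1r29, the next gene along, was at 0% in the deleted and 39.4% in the control list. Vmn1r6 stood at 0% in the deleted and 24.2% in the control list, and its whole coding sequence lay under a control peak. Vmn1r24 was at 0% in the deleted and 12.3% in the control list, and Vmn1r19 was at 0% in the deleted and 10.2% in the control list. None of the control peaks named here for Vmn1r26, Vmn1r28 and Vmn1r29 had a −log10 q-value above 2.06. Control peaks on the rest of the chromosome had a median of 1.66 and reached 6.44.

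In 3 genes of the first cluster coverage was slightly higher in the deleted list. Vmn1r13 was at 25.3% in the deleted and 22.2% in the control list, Vmn1r18 at 15.5% in the deleted and 12.6% in the control list, and Vmn1r27 at 4.88% in the deleted and 3.0% in the control list. The peaks of Vmn1r18 lay at different places: its gene body was 0% covered in the deleted and 85.2% in the control list. At 20 kb on both sides Vmn1r13 and Vmn1r18 were lower in the deleted list, with differences of -24.0 and -3.09 points.

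**Figure D2:**
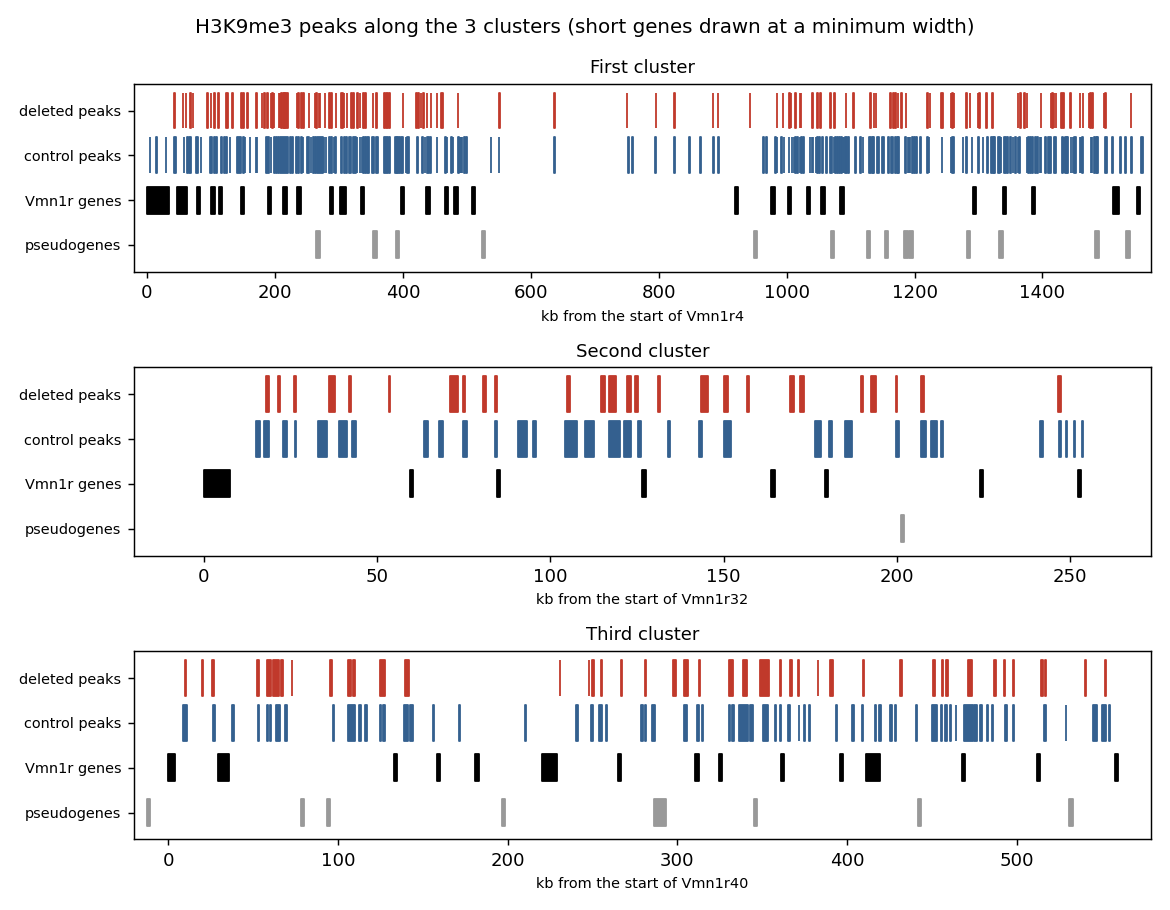
Peaks of the deleted list (red) and the control list (blue) along each Vmn1r cluster of chromosome 6, above the 51 protein-coding Vmn1r genes (black) and the Vmn1r pseudogenes (grey), with distance in kb from the start of the first gene of each cluster on the horizontal axis. In the first cluster, blue peaks are dense on both sides of a sparse stretch of 401 kb, and few red peaks meet the genes on its far side, where windows were covered at 2.06% in the deleted and 17.8% in the control list.

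The first cluster was split by a stretch of 401 kb without Vmn1r genes, which holds 5 protein-coding genes: Ppm1k, a protein phosphatase of mitochondria, Herc6, Pyurf, Lancl2 and Vopp1. That stretch was covered at 1.12% in the deleted and 2.67% in the control list. The genes before it, the 17 from Vmn1r4 to Vmn1r20, had windows covered at 10.5% in the deleted and 28.9% in the control list, a ratio of 0.364. The genes after it, the 11 from Vmn1r21 to Vmn1r31, had windows covered at 2.06% in the deleted and 17.8% in the control list, a ratio of 0.115. That ratio rests on few bases, 2.71 kb in the deleted and 23.45 kb in the control list. Among those 11 genes, 6 had peaks in the control list alone, 3 had peaks in both lists and Vmn1r21 and Vmn1r22 had none. Of the control-covered bases in the windows after the stretch 3.20% lay under a deleted-list peak too, against 22.4% before it. The share on the rest of chromosome 6 was 26.2%.

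The ratio in the first cluster was lower near the genes than between them. Bases between the gene windows of the first cluster were covered at 8.36% in the deleted and 17.4% in the control list, a ratio of 0.481, close to the 0.506 of the rest of the chromosome. The 1 Mb on each side of the cluster was covered at 1.16% in the deleted and 2.92% in the control list, a ratio of 0.398. The sides differed: the 1 Mb before the cluster was covered at 0.638% in the deleted and 2.37% in the control list, a ratio of 0.269, which is below that of the gene windows, and the 1 Mb after it had a ratio of 0.487. The 10 Mb segment that holds the cluster, outside the Vmn1r windows, had a ratio of 0.509. The 16 Vmn1r pseudogenes of the cluster, non-coding copies of the same family, averaged 6.63% in the deleted and 24.9% in the control list, with 10 lower and 0 higher by 10 points or more.

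The gene windows of the second cluster were less covered than the bases between them in both lists. The windows were covered at 4.91% in the deleted and 8.53% in the control list, a ratio of 0.575, and bases between them at 12.6% in the deleted and 21.3% in the control list, a ratio of 0.591. Its most covered gene, Vmn1r35, was at 25.1% in the deleted and 25.5% in the control list. Vmn1r37 was at 0% in the deleted and 22.6% in the control list, and Vmn1r33 was at 0% in the deleted and 12.3% in the control list. In the other direction, Vmn1r34 was at 11.2% in the deleted and 3.71% in the control list, and Vmn1r36 at 4.66% in the deleted and 0% in the control list. At 20 kb on both sides Vmn1r34 was lower in the deleted list, with a difference of -7.42 points. Within 1 Mb of the cluster the ratio was 0.522.

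The gene windows of the third cluster had a ratio close to that of the rest of the chromosome and below that of their surroundings. The windows were covered at 5.01% in the deleted and 10.2% in the control list, a ratio of 0.492, and bases between them at 11.4% in the deleted and 15.8% in the control list, a ratio of 0.719. The 1 Mb on both sides of the cluster was covered at 1.16% in the deleted and 1.52% in the control list, a ratio of 0.762. Vmn1r52 was its most covered gene and had its largest difference, at 21.8% in the deleted and 43.4% in the control list, and a peak of 2657 bp in the deleted list lay within the bounds of a control peak of 4980 bp. Vmn1r49 was at 7.65% in the deleted and 24.5% in the control list. Vmn1r46 was at 7.77% in the deleted and 0% in the control list, and was lower in the deleted list at 20 kb on both sides, with a difference of -7.99 points. Only 3 of its 15 genes were lower by 10 points or more, and 0 were higher.

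**Figure D3:**
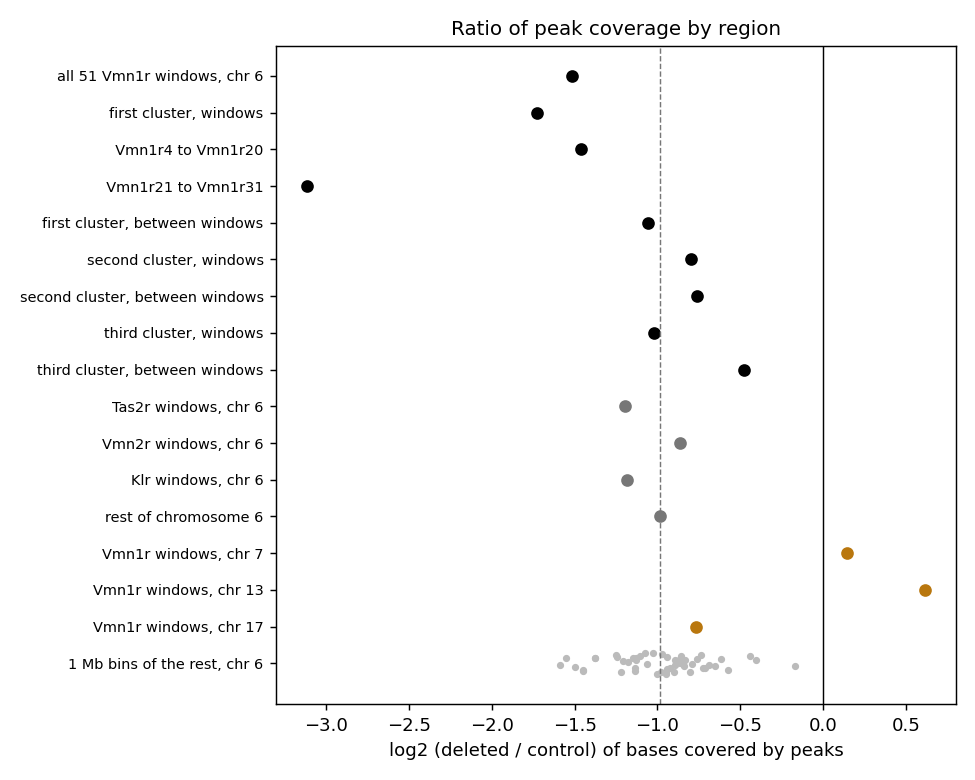
Log2 ratio of bases under H3K9me3 peaks, deleted over control, for the Vmn1r windows and clusters of chromosome 6 (black), other gene families and the rest of that chromosome (grey), Vmn1r windows of other chromosomes (orange) and the 52 bins of 1 Mb of the rest of chromosome 6 with a mean coverage of 5% or more (light grey). The dashed line marks the rest of chromosome 6 at -0.98, and Vmn1r21 to Vmn1r31 lie farthest to its left, at -3.11. That point rests on 2.71 kb covered in the deleted list.

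The rest of chromosome 6 was itself uneven. In 140 bins of 1 Mb without any Vmn1r window the ratio ran from 0.131 to 0.997 with a median of 0.525, and all 140 were lower in the deleted list. In 14 of these bins (10.0%) the ratio was at or below the 0.350 of the Vmn1r windows. Of the 52 bins with a mean coverage over both lists of 5% or more, 2 were at or below it, and their range was 0.333 to 0.890. The windows of a cluster span less than 1 Mb, and a ratio over fewer bases varies more, so these bins are a description of the spread and not a test. Other gene families of the chromosome had fewer covered bases in the deleted list too. The windows of 33 Tas2r bitter taste receptor genes were covered at 14.3% in the deleted and 32.7% in the control list, a ratio of 0.437. The ratio was 0.549 for 9 Vmn2r genes, the second vomeronasal receptor family, and 0.440 for 27 Klr genes, which encode lectin-like receptors of natural killer cells. The 28 Olfr odorant receptor genes of the chromosome had few peaks, with mean coverage of 1.28% in the deleted and 1.95% in the control list.

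**Figure D4:**
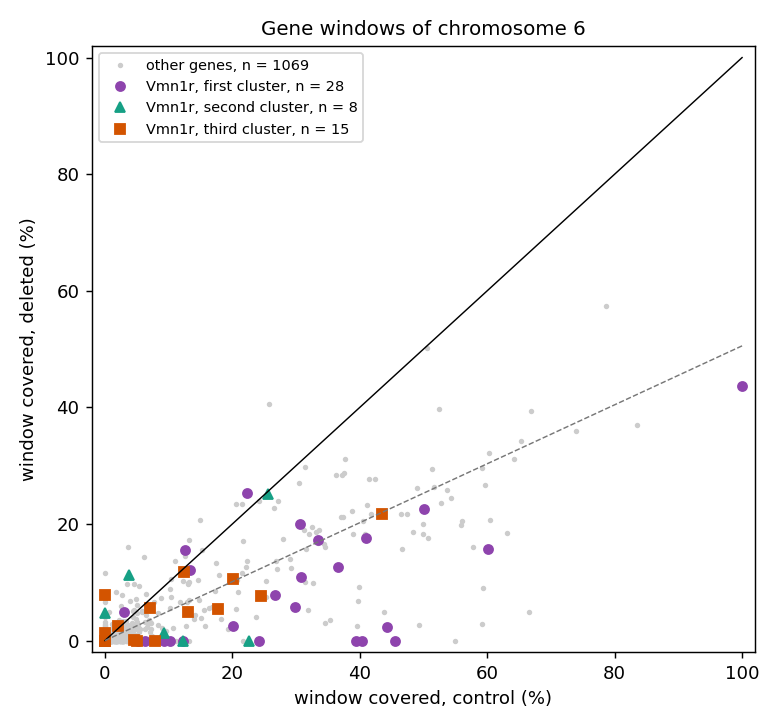
Window coverage (gene plus 5 kb) in the deleted list (vertical axis, percent) against the control list (horizontal axis, percent) for the Vmn1r genes of the first cluster (purple circles), the second (green triangles) and the third (orange squares) and for 1069 other protein-coding genes of chromosome 6 (grey). The solid line marks equal coverage and the dashed line the ratio of the rest of chromosome 6, 0.506; Vmn1r26, Vmn1r28 and Vmn1r29 lie on the horizontal axis, at 45.6%, 40.4% and 39.4% in the control list.

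Vmn1r genes on other chromosomes had ratios on both sides of 1. On chromosome 7 the windows of 124 Vmn1r genes were covered at 10.1% in the deleted and 9.15% in the control list, a ratio of 1.10, beside 1.23 for all of chromosome 7. On chromosome 13 those of 36 genes were covered at 23.9% in the deleted and 15.6% in the control list, a ratio of 1.53, beside 1.12 for that chromosome. On chromosome 17 those of 14 genes were covered at 15.0% in the deleted and 25.4% in the control list, a ratio of 0.588, beside 1.01 for that chromosome. The windows were thus below their chromosome on 7 and 17 and above it on 13. Over all 178 Vmn1r genes outside chromosome 6, 11.8% were lower and 18.0% were higher by 10 points or more.

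The individual peaks over the Vmn1r genes of chromosome 6 were fewer and narrower in the deleted list. The windows were touched by 55 peaks in the deleted and 89 in the control list, and no peak touched more than 1 window. Median peak width was 809 bp in the deleted and 1326 bp in the control list, and on the rest of the chromosome it was 799 bp in the deleted and 1048 bp in the control list. Of the deleted-list peaks 17 (30.9%, 95% Wilson interval 20.3 to 44.0%) had no control peak overlapping by 1 bp or more, beside 33.3% on the rest of the chromosome. Of the control peaks 53 (59.6%, 49.2 to 69.1%) had no peak in the deleted list, beside 55.3%. The intervals cover counting error only. Of all bases covered in the Vmn1r windows, those covered in both lists made up 53.5% of the deleted-list bases and 18.7% of the control-list bases. On the rest of the chromosome they made up 51.9% of the deleted-list bases and 26.2% of the control-list bases. A −log10 q-value of 2 or more was reached by 5 peaks (9.09%) in the deleted and 16 (18.0%) in the control list. On the rest of the chromosome these shares were 9.94% in the deleted and 22.2% in the control list. A value of 3 or more was reached by 0 Vmn1r peaks in both lists. Such calls were rare on the rest of the chromosome too, with 50 of 7165 peaks in the deleted and 195 of 9941 in the control list.

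Counted over bases, gene bodies were less covered than their flanks in both lists. Bodies were covered at 3.81% in the deleted and 12.3% in the control list, and the 5 kb flanks at 7.19% in the deleted and 20.1% in the control list. Long genes weigh most in those shares. Averaged per gene over the 28 genes of the first cluster, bodies were covered at 5.93% in the deleted and 26.7% in the control list, beside 8.45% in the deleted and 26.7% in the control list for their windows. In that cluster the 1 kb just before the annotated start was covered at 10.4% in the deleted and 37.5% in the control list. Peaks touched the bodies of 6 genes in the deleted and 16 in the control list, and covered 0 bodies in full in the deleted and 4 in the control list. These counts have no background from other genes here. The rest of the chromosome also had fewer covered bases in the deleted list, at a ratio of 0.506. Around the annotated starts of the 45 genes with a known strand, coverage within 5 kb averaged 6.62% in the deleted and 18.7% in the control list. At 10 to 20 kb from the start it averaged 10.1% in the deleted and 19.1% in the control list. All 40 bins of 1 kb were lower in the deleted list. The same held in every bin for 907 other protein-coding genes of chromosome 6, so this direction was not particular to the Vmn1r genes.

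**Figure D5:**
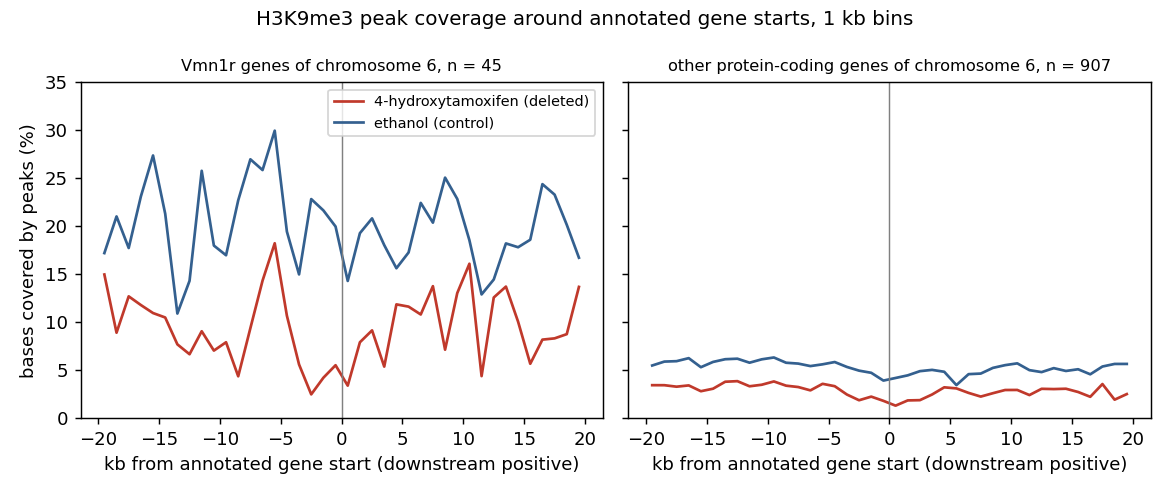
Percent of bases under H3K9me3 peaks in bins of 1 kb from 20 kb before to 20 kb after the annotated start, for 45 Vmn1r genes of chromosome 6 (left) and 907 other protein-coding genes of the chromosome (right), with the deleted list in red and the control list in blue. The red line lies below the blue one in all 40 bins of both panels. In the left panel the means within 5 kb of the start are 6.62% in the deleted and 18.7% in the control list.

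At the annotated starts themselves, the 300 bp windows were touched by peaks in 4 of 45 genes in the deleted and in 10 in the control list, all in the first cluster. These were 8.89% of the windows in the deleted and 22.2% in the control list. Over all protein-coding genes the share was 1.83% in the deleted and 1.82% in the control list, and over other genes of chromosome 6 it was 1.79% in the deleted and 3.49% in the control list. Over Vmn1r genes of other chromosomes it was 10.6% in the deleted and 11.8% in the control list. Both lists touched the windows of 2 genes, Vmn1r11 and Vmn1r17, the deleted list alone those of 2, Vmn1r12 and Vmn1r13, and the control list alone those of 8. Among those 8 were Vmn1r14 and Vmn1r28, whose windows lie inside the gene. The Vmn1r17 window was 73.3% covered in the deleted and 6.67% in the control list.

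Genes with closely similar 300 bp start windows could differ in coverage of the gene plus 5 kb. Pairwise identity of the 300 bp windows had a median of 67.0% within a cluster and 51.7% between clusters, and for 43 of 45 genes the most similar window lay in the same cluster. The exceptions were Vmn1r5 and Vmn1r32, most similar to each other across the first and second clusters. The pair Vmn1r36 (chr6:66716840-66717139, minus strand) and Vmn1r37 (chr6:66731142-66731441, plus strand) is printed because its windows matched at 95.7% of bases while the genes differed in coverage, with capitals for the 13 bases in each that had no identical partner in the alignment.
Vmn1r37: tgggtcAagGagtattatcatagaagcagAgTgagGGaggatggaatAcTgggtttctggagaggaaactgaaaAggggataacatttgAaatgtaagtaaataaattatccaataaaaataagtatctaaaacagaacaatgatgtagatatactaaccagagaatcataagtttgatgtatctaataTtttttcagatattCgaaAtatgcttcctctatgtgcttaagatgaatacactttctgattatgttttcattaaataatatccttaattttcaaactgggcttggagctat
Vmn1r36: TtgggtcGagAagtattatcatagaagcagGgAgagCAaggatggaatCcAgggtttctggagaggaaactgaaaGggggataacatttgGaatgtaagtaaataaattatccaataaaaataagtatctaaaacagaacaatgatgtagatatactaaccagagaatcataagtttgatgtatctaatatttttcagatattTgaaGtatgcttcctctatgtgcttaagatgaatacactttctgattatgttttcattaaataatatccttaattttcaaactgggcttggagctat

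Vmn1r37 was at 0% in the deleted and 22.6% in the control list, and Vmn1r36 at 4.66% in the deleted and 0% in the control list. Vmn1r47 and Vmn1r48 had identical windows (100%) and lay next to each other in the third cluster. Vmn1r47 was at 10.6% in the deleted and 20.0% in the control list, and Vmn1r48 at 2.54% in the deleted and 2.01% in the control list. These values are for the gene plus 5 kb. The 300 bp windows of Vmn1r36, Vmn1r37, Vmn1r47 and Vmn1r48 were at 0% in both lists, so the differences lay in sequence that was not compared. In all, 9 pairs reached 90% identity. How reads that match several copies were placed is not given in the sources used here, so the coverage of such pairs is uncertain. Repeat content was not analysed here.

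A list of 24 genes was drawn up for vomeronasal signalling beside the type 1 receptors. It also took in Rtp1, Rtp2 and Lhx8, and use of each gene in vomeronasal neurons was not checked. Of the 24 genes, 13 had no peak in either list. Among these were Gnai2, Trpc2 and the olfactory marker gene Omp. Over all 21779 protein-coding genes, 14022 had no peak in either list, so the 24 genes were not unusually free of peaks. By 10 points or more 2 of the 24 were lower and 1 was higher, beside 2.53% lower and 2.40% higher over all protein-coding genes. The 3 that passed 10 points are formyl peptide receptor genes on chromosome 17. Fpr-rs4 was at 13.2% in the deleted and 29.0% in the control list, Fpr-rs6 at 0% in the deleted and 23.4% in the control list, and Fpr3 at 54.7% in the deleted and 21.5% in the control list. Ano2, a chloride channel gene of olfactory neurons and a member of the list that lies on chromosome 6, was at 2.03% in the deleted and 3.61% in the control list.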

How the data were processed

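For each treatment there was 1 H3K9me3 library and 1 input library. The deposited files are 2 lists of broad peaks on mm10. BWA 0.7.17-r1188, MACS2 and ChIPseeker 1.30.3 are named in the submitters' processing notes, while the peak-calling settings, the MACS2 version and how the input served are not given in the sources used here. Every deposited peak has a start and an end, the authors' fold enrichment (a linear ratio), their −log10 p-value and −log10 q-value, and a score that is 10 times the −log10 q-value cut to a whole number. The lowest −log10 q-value was 1.01 in the deleted and 1.00 in the control list. Fold and q are the authors' values and were used to describe or filter peaks within a list. The lists carry replicate number 2 and the sample titles number 1, so each list was matched to its library by treatment and mark.

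RefSeq gives the gene positions (assembly GRCm38.p6, the same chromosomes as mm10). Within the first 3 Mb of chromosomes other than Y, where no peak lies, 108 listed protein-coding genes were set aside. Coverage, overlap and identity (global alignment; match 1, mismatch -1, gap opening -3 and extension -1) were computed with biopython 1.88, numpy 2.4.6, pandas 2.3.3 and scipy 1.17.1 under Python 3.11.15, and plots with matplotlib 3.10.9. Coverage was tested on simulated peaks. The Vmn1r genes, the gene lists and the thresholds were chosen with earlier results of these data known. Genes were named where they had the highest coverage, the largest fall or the largest rise in a cluster, the 6 largest falls or rises, the 5 highest values in the deleted list, or 0% in 1 list and 10% or more in the other. Named after their values were seen were the genes with printed sequences, those at 0% in both lists, Vmn1r17, Vmn1r49 and the close pairs. Protein sequences were not used here. Alternatives covered peak confidence, list size, joining of peaks, the window, pseudogenes, each cluster, the overlap rule and the background region.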

Additional observations from a re-analysis of the deposited data

How the results depend on the processing

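Of 67 alternative values of the main results, 43 stayed within 1.5 times the reported value (for the share of control peaks without a partner, within its Wilson interval) and in the same direction. The log2 ratio of the Vmn1r windows was negative in each alternative that gave a value. With both lists at a −log10 q-value of 2 or more it was -2.56, the difference from the rest of the chromosome -0.31, the mean difference -3.97 points, 4 genes were lower by 10 points or more, and 87.5% of the control peaks had no partner. With each list limited to peaks of at least its median fold the mean difference was -8.01 points, 13 genes were lower, 1 was higher and 76.6% of control peaks had no partner. With peaks joined within 5 kb these were -26.1 points, 4 higher and 34.9%. With the gene body alone 12 genes were lower and 2 higher. With 20 kb on both sides the difference from the rest was -0.095. With pseudogenes 2 genes were higher. Without the first cluster the log2 ratio was -0.95, the difference from the rest reversed to 0.034, the mean difference was -4.76 points and 5 genes were lower. With an overlap of 50% of the peak 85.4% of control peaks had no partner, and with a peak within 5 kb counted 29.2%. Over its whole span the first cluster changed by -11.0 points and the second by -6.91. For the 20 named genes, 6 of their 80 values stayed within 1.5 times the reported value and 66 moved further or fell to 0. Of those 66, 20 came from a −log10 q-value of 3 or more, where every value had to be 0. That setting gave no value for the main results, and single genes were run on fewer settings, so these counts are not like for like. At a −log10 q-value of 2 or more 13 of the 20 named genes had a difference of 0. With the gene body alone 11 of them did. Among the 20 named genes 8 of 80 values reversed: Vmn1r13 was -5.90 points at a −log10 q-value of 2 or more and -24.0 at 20 kb, Vmn1r34 -3.71 and -7.42, Vmn1r18 -85.2 in the gene body and -3.09 at 20 kb, Vmn1r46 -7.99 at 20 kb, and Vmn1r9 66.9 in the gene body. The cause of these changes was not tested. At a −log10 q-value of 3 or more no Vmn1r peak was left in either list. No paired analysis was possible because there was only 1 library per group, which also left no replicate to leave out. The depth of the libraries is unknown.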

Other observations

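Vmn1r pseudogenes of chromosome 6 differed between the clusters. The 8 pseudogenes of the third cluster averaged 9.03% in the deleted and 8.20% in the control list, with 0 lower and 1 higher by 10 points or more. The one higher was Vmn1r-ps25, at 30.7% in the deleted and 15.5% in the control list. Vmn1r261, a pseudogene near the start of the chromosome and in no cluster, was at 28.3% in the deleted and 7.95% in the control list. In the first cluster Vmn1r-ps8 was at 25.6% in the deleted and 72.3% in the control list, and Vmn1r-ps10, which lies between Vmn1r15 and Vmn1r16, at 0% in the deleted and 49.9% in the control list. The pseudogenes named here were chosen after their values were seen.

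By older names, the 31 genes of the V1rc group averaged 8.04% in the deleted and 24.8% in the control list, and 19 of them were lower by 10 points or more. The 8 genes with V1ra names alone averaged 5.24% in the deleted and 12.6% in the control list, and the 4 with V1rb names alone 6.79% in the deleted and 9.24% in the control list. Within the V1rc group the values differed by cluster: the 25 genes of the first cluster averaged 8.78% in the deleted and 28.4% in the control list, and the 6 of the second 4.96% in the deleted and 10.1% in the control list. The V1ra and V1rb names occur in the third cluster alone, so for them name and cluster cannot be told apart.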
